A study of Mus musculus with 9 samples.

Results

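A set of 10 genes that mark basal and luminal epithelial cells of the mammary gland was followed in 66cl4, a mouse mammary tumour cell line labelled in the samples as triple-negative breast cancer. They are Trp63, Krt5 and Krt14 of the basal layer, Krt7, Krt8, Krt18 and Krt19 of simple and luminal epithelium, the protease inhibitor Spint2, and the transcription factors Gata3 and Sox9. The 10 genes were picked by symbol, with their levels in these libraries already known, from the 52208 genes of the raw count matrix. Their levels and the differences between groups are therefore given as a description, and no p-value is printed for them. Which of them passed at an adjusted p under 0.05 is given beside the share of all tested genes that passed. The gene lists below were also fixed with earlier results known, and p-values of their genes are printed. All 10 had enough counts to enter the fit across genes.

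Messenger RNA was sequenced from 3 groups of 3 cultures each, all of 66cl4 cells kept under puromycin after transduction of a short hairpin and selected for mCherry. The scramble group carried the shScramble hairpin with the Empty Vector. The knockdown group carried the shEya3 hairpin with the Empty Vector, and the add-back group carried the shEya3 hairpin with IKK2-SE, a form of the NF-kB kinase IKK2 that is always active. Eya3 encodes a transcriptional cofactor that is also a phosphatase. Only 1 hairpin against Eya3 and 1 scramble hairpin were used, and no group combined shScramble with IKK2-SE. The sample titles call the hairpin KD2 while the count columns call it KD3, so which hairpin it was is not settled here. The labels name biological replicates but do not say whether these were separate transductions, so the errors and p-values measure the spread between these samples. The knockdown is compared with scramble and also with add-back, and the 3 comparisons thus share libraries.

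The mammary duct has an outer layer of contractile basal cells on the basement membrane and an inner layer of luminal cells facing the lumen. p63, the product of Trp63, is a p53-family transcription factor of the basal layer and maintains expression of keratins 5 and 14. Luminal cells instead carry keratins 7, 8, 18 and 19, and GATA3 is the main transcription factor of their fate, while SOX9 is active in luminal progenitors. Keratins polymerise only as pairs of a type I chain (14, 18, 19) with a type II chain (5, 7, 8), classically 5 with 14 and 8 with 18.

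Library totals ran from 63601403 to 81534534 counts. Values below are CPM, read counts scaled to library size with TMM, a correction for composition, with the SD over 3 libraries. Eya3 itself was at 62.96, 64.13 and 60.91 CPM in the scramble libraries, at 25.34, 25.29 and 24.28 in the knockdown and at 28.99, 26.05 and 24.66 in the add-back, so both hairpin groups lay below scramble. Defining markers of mammary epithelium were near 0, although the line is labelled as a breast cancer. The summed level of Epcam, Cdh1, Cldn3, Cldn7 and Elf5 was 0.102 to 0.186 CPM in scramble, 0.0375 to 0.0399 in knockdown and 0 to 0.0792 in add-back. Of the receptors that define the triple-negative class, Pgr had 0 counts in all 9 libraries, where 3 counts would be 0.0375 to 0.0464 CPM. Esr1 averaged 11.8 CPM in scramble and Erbb2 55.4 CPM. In bulk RNA such as this, fewer cells expressing a gene and less RNA per cell cannot be told apart.

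Promoter sequences are shown for 4 of the genes, Spint2, Krt5, Krt8 and Krt18. The sequences come from RefSeq on GRCm38.p6, which had an entry for 7 of the 10 genes, and only bases before the annotated gene are printed, 5′ to 3′ on the gene's strand. The windows of Krt7, Krt14 and Gata3 lay wholly inside their annotated genes, so they are not shown, but they were searched for the letters below. Capitals mark CpG dinucleotides, the sites at which promoters can be methylated. The windows are chr7:29281978-29282227 on the minus strand for Spint2, chr15:101712906-101713155 on the minus strand for Krt5, chr15:102004483-102004592 on the minus strand for Krt8 and chr15:102027966-102028179 on the plus strand for Krt18.
Spint2: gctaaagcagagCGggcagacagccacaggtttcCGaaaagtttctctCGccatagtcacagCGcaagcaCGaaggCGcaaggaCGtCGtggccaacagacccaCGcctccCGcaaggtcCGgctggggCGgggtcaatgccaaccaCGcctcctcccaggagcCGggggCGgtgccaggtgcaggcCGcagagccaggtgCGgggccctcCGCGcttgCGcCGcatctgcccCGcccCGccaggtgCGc
Krt5: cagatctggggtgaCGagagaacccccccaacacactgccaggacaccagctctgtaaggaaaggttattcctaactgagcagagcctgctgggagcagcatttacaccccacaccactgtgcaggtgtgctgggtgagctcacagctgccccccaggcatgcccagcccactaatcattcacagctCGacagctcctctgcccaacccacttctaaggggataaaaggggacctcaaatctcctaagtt
Krt8: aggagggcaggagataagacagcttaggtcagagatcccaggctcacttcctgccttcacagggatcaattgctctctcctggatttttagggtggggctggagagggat
Krt18: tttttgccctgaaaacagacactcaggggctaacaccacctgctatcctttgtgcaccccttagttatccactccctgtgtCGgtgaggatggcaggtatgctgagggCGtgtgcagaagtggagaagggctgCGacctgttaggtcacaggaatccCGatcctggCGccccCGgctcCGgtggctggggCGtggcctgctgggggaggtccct

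The Spint2 window was rich in CpG, with 24 in its 250 bases against a median of 6 over 32851 annotated mouse promoter windows of the same length. The Krt5 window held 2. The full windows of Krt8 and Krt18 held 3 and 12, of which the stretches shown, which end 140 and 36 bases before the RefSeq start, hold 0 and 8. The letters GATAA, a core read by GATA factors, were searched on both strands of the 7 windows and were found in those of Krt5, Krt8, Krt14 and Krt18, beside 22.6% of all promoters. They were not in the Spint2 window. ACAAT, a core read by SOX factors, was in none of the 7 windows, beside 27.7% of all promoters. CANNTG, the E-box with any base at N, was in all but that of Gata3, beside 66.2%. The TATAAA letters were in 0 of the 7 windows and in 12.4% of all promoters. In the Krt5 window the GATAA match begins 30 bases before the RefSeq start and reads on as GATAAA, which differs from TATAAA in the first base only. Which factor reads these letters was not tested. These are matches of letters, and neither binding nor methylation was measured.

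Per kilobase of exon, the 10 genes spanned several orders of magnitude and their order changed between groups. The length counts every annotated exon over all transcripts of a gene, such as 7.049 kb for Krt7 with 5 transcripts and 1.437 kb for Krt18 with 1. Where the transcripts present are shorter than this, the value per kb is too low, so close ranks between genes depend on the length used. In scramble, Krt8 led at 321 CPM per kb, followed by Gata3 at 15.6, Sox9 at 0.829 and Krt14 at 0.706. Krt19 (0.326) and Krt7 (0.195) came next with overlapping libraries, then Krt18 at 0.0631. Krt5 (0.0206), Spint2 (0.0064) and Trp63 (0.00326) came last, each overlapping the next. In knockdown, Krt8 (679) and Gata3 (26.2) again led, and Spint2 (3.53) and Trp63 (2.24) followed above Sox9 (0.969) and Krt7 (0.293). Krt14 (0.173), Krt5 (0.145), Krt18 (0.102) and Krt19 (0.0321) formed the bottom, and the libraries of each overlapped those of the next. The add-back order was that of the knockdown for its first 6 genes, with Spint2 at 3.6 CPM per kb and Trp63 at 3.13, and Krt19 again was last at 0.015.

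**Figure D1:**
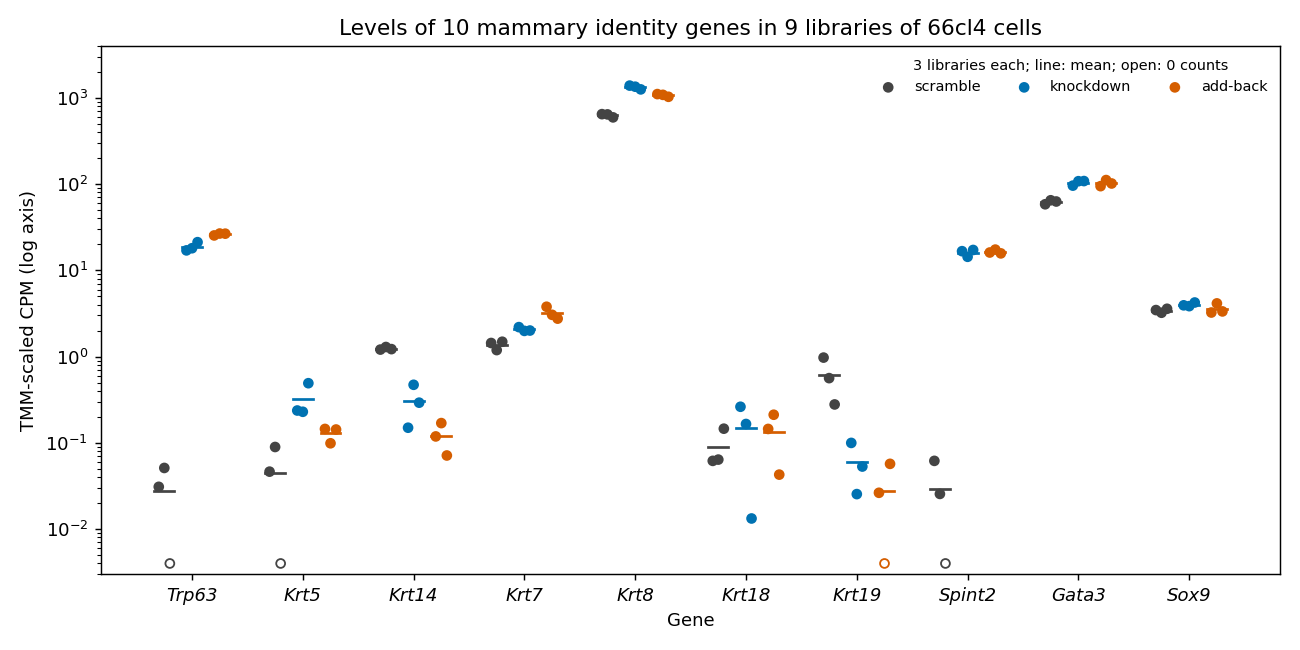
CPM after TMM scaling (log axis) of the 10 genes, with 1 point per library, coloured by group, and a line at each group's mean; open points mark libraries with 0 counts. Trp63 and Spint2 are at or below 0.0619 CPM in all 3 scramble libraries and above 14 CPM in the 6 libraries with the Eya3 hairpin.

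Counted by edgeR's test across all 16766 tested genes at an adjusted p under 0.05, 8 of the 10 genes passed between knockdown and scramble, 6 higher and 2 lower, where 57.5% of all tested genes passed (27.7% higher, 29.9% lower). The 2 outside were Krt18 and Sox9. Between add-back and knockdown 3 passed, Trp63 and Krt7 higher and Krt8 lower, beside 10.4% of all genes (5.61% higher, 4.82% lower). Between add-back and scramble 7 passed, 5 higher and 2 lower, beside 55.8% (27% higher, 28.7% lower). Groups did not overlap for 9, 4 and 8 of the 10 genes in the same order, against 63.6%, 24.7% and 61.1% of all tested genes. Because the genes were chosen with these values known, nothing is read from the counts. Without add-back replicate 1, its highest library, Krt7 no longer passed between add-back and knockdown (0.49), and Krt14 passed there with 4 of 17 alternative settings. With library totals in place of TMM, 65.9% of the genes passing between add-back and knockdown were higher, against 53.8%.

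**Figure D2:**
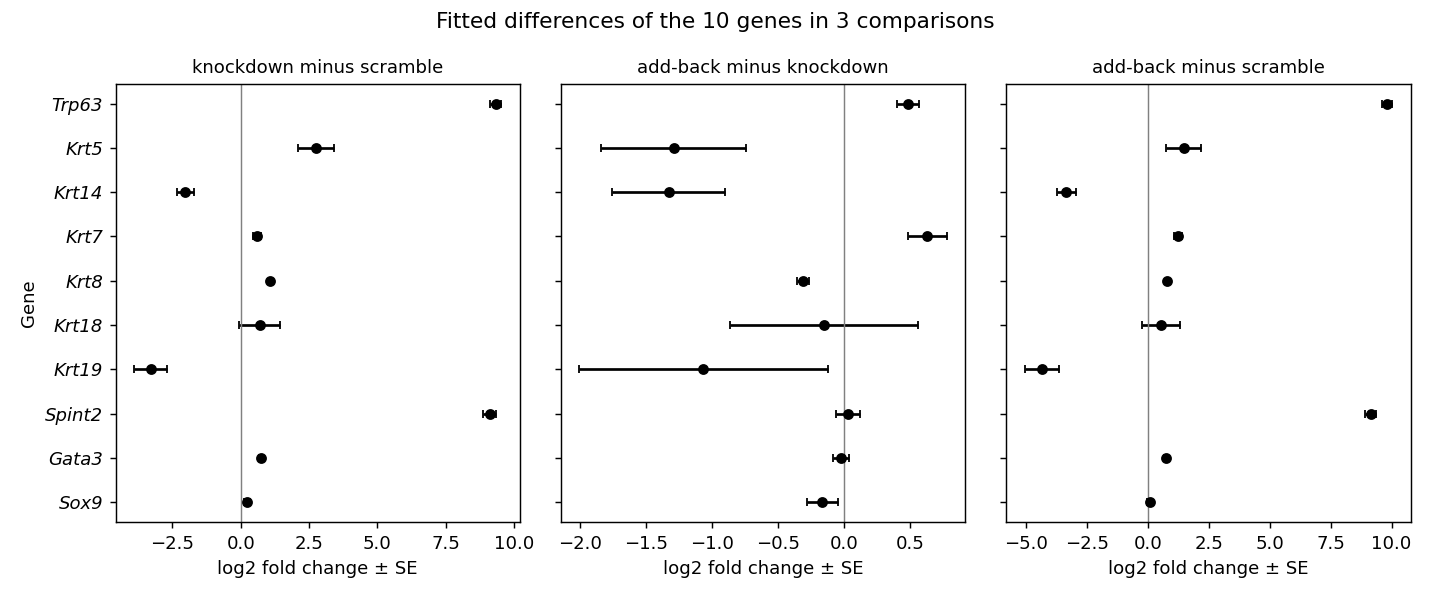
Fitted log2 fold change of the 10 genes in the 3 comparisons, with bars of 1 SE on either side; the horizontal scale differs between panels. Trp63 and Spint2 lie above 9 in both comparisons with scramble, Krt14 and Krt19 lie below 0 in all panels, and in add-back minus knockdown all values lie between -1.33 and 0.63. The bars of Trp63 and Spint2 against scramble rest on 6 scramble counts each and are too short.

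Trp63 (chromosome 16, 25683763 to 25892102, plus strand, on GRCm38 as are all gene positions here) was near 0 in scramble and at a moderate level in both hairpin groups. It was at 0.03094, 0.05121 and 0 CPM in the scramble libraries, from 6 counts in all. The knockdown libraries were at 17.05, 18.06 and 21.23 CPM and the add-back libraries at 25.41, 26.74 and 26.64 CPM. The 3 groups were fully separated, in the order scramble, knockdown, add-back. Pooled over libraries, the knockdown level was 681 times the scramble level, with a 95% interval of 313 to 1860 that covers counting error only. The add-back level was 954 times the scramble level (438 to 2600), and the fitted add-back minus knockdown difference was 0.48 ± 0.09 (log2, SE). The fitted knockdown minus scramble difference was 9.33 ± 0.22, and it ran from 8.75 without scramble replicate 3, the library with 0 counts, to 10.2 without scramble replicate 2. Both values lie outside the 95% interval of 8.91 to 9.75 from that SE, so the SE is too small at 6 scramble counts. The 40 tested genes nearest to Trp63 on chromosome 16 had a median log2 difference of -0.14 between knockdown and scramble, and ranged from -7.75 to 8.52, so 0 of the 40 had a larger difference than Trp63. Between add-back and scramble 1 of the 40 did, at 10.15 against 9.81. No 50-base stretch of Trp63 transcripts is shared with another annotated gene.

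The partner keratins of the basal layer differed from Trp63 and from each other. Krt5 (chromosome 15, 101707070 to 101712898, minus strand), the basal type II keratin, stayed low in every library. It was at 0.0464, 0.08962 and 0 CPM in scramble, 0.2373, 0.2294 and 0.4919 in knockdown, and 0.1451, 0.09894 and 0.1429 in add-back. The groups did not overlap in CPM, with the knockdown highest and the add-back between. The values rest on 10 counts in scramble, 74 in knockdown and 28 in add-back. Scramble replicate 2 and add-back replicate 2 both held 7 counts, so the gap between those groups comes from library scaling alone. The log2 differences were 2.76 ± 0.65 for knockdown minus scramble, -1.29 ± 0.55 for add-back minus knockdown and 1.46 ± 0.73 for add-back minus scramble. Without scramble replicate 2, its highest scramble library, the last was 2.49, and without scramble replicate 3 it was 0.88. Of its 50-base stretches, 12.2% also occur in other transcripts, such as those of Krt6a, which had 0 counts throughout.

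Krt14 (chromosome 11, 100203162 to 100207548, minus strand), the type I partner of keratin 5, lay on the opposite side. It was at 1.207, 1.293 and 1.222 CPM in scramble, 0.1499, 0.4715 and 0.2925 in knockdown and 0.1188, 0.1696 and 0.07143 in add-back. Scramble stood above both other groups, and the knockdown and add-back libraries overlapped. The differences were -2.02 ± 0.33 for knockdown minus scramble, -1.33 ± 0.43 for add-back minus knockdown and -3.35 ± 0.38 for add-back minus scramble. Without knockdown replicate 2, the highest of its group, the add-back minus knockdown difference was -0.86. Krt14 was thus lower, and Trp63 higher, in both hairpin groups than in scramble. Other basal keratins were barely detected, with 1, 1 and 3 counts of Krt17 and 4, 5 and 3 counts of Krt15 in the scramble, knockdown and add-back groups.

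Among the simple-epithelial keratins, Krt8 (chromosome 15, 101996698 to 102004482, minus strand) was the one abundant member. Its libraries were at 647.4, 643.0 and 594.0 CPM in scramble, 1387, 1347 and 1254 in knockdown and 1106, 1084 and 1029 in add-back. No 2 groups overlapped, and the add-back lay between the other 2. The differences were 1.08 ± 0.05 for knockdown minus scramble, -0.31 ± 0.05 for add-back minus knockdown and 0.77 ± 0.05 for add-back minus scramble. The processed pseudogene Krt8-ps holds 26.9% of the 50-base stretches of Krt8, and reads may have been split between them. Krt8-ps was at 3.42 ± 0.267, 6.77 ± 0.855 and 5.67 ± 0.825 CPM in scramble, knockdown and add-back (SD, n = 3), the same order of groups at a small part of the level.

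Krt18 (chromosome 15, 102028180 to 102032027, plus strand), the gene next to Krt8 that encodes its usual type I partner, was close to undetected. It was at 0.06187, 0.06401 and 0.1461 CPM in scramble, 0.2623, 0.1656 and 0.01329 in knockdown and 0.1451, 0.212 and 0.04286 in add-back, from at most 21 counts in a library. The groups overlapped in every comparison, and the knockdown minus scramble difference was 0.69 ± 0.75, or -0.01 without knockdown replicate 1. Of its 50-base stretches, 0.72% occur in other annotated transcripts. Whether reads of Krt18 were lost to copies outside the annotation was not tested.

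Krt19 (chromosome 11, 100140810 to 100148665, minus strand), a type I keratin without a fixed partner, was lower in both hairpin groups, in which Krt8 was higher. It was at 0.9745, 0.5633 and 0.279 CPM in scramble, 0.09992, 0.02548 and 0.05318 in knockdown and 0.02639, 0 and 0.05714 in add-back. Scramble stood above the other groups, which overlapped each other. Its pooled scramble level was 9.8 times that in knockdown (95% counting interval 5.63 to 18.4) and 21.2 times that in add-back (9.47 to 58.8).

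Krt7 (chromosome 15, 101411043 to 101430313, plus strand), a type II keratin of ductal epithelium, was lowest in scramble and highest in add-back. It was at 1.439, 1.191 and 1.488 CPM in scramble, 2.198, 1.988 and 2.007 in knockdown and 3.787, 3.053 and 2.757 in add-back. No 2 groups overlapped. The differences were 0.59 ± 0.16 for knockdown minus scramble, 0.63 ± 0.15 for add-back minus knockdown and 1.22 ± 0.15 for add-back minus scramble. The antisense gene Gm671 overlaps Krt7, and the strand setting of the counting is not given in the sources used here.

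Set beside all annotated keratins, the type II side was Krt8 almost alone. The 26 type II genes summed to 326.9 ± 15.2 CPM per kb in scramble, 687.1 ± 34.6 in knockdown and 555.6 ± 20.5 in add-back (SD, n = 3), of which Krt8 made up 98.1%, 98.8% and 98.6%. The 27 type I genes together reached 1.9 ± 0.0862, 1.62 ± 0.0964 and 1.47 ± 0.162 CPM per kb. As counted, Krt8 per kb was 168 times the type I sum in scramble (165 to 175 over libraries), 420 times in knockdown (370 to 447) and 374 times in add-back (350 to 405). Any Krt18 reads left uncounted would lower these ratios, which was not tested. The sums and shares also depend on the exon lengths used, 1.958 kb for Krt8 and 6.393 kb for Krt80. The highest type I gene in the hairpin groups was Krt10, a keratin of suprabasal epidermis, at 0.531, 1.04 and 1.15 CPM per kb in scramble, knockdown and add-back. Of 48 keratins outside the 10 genes, 18 had 0 counts in all 9 libraries and 5 were tested. Krt10 and Krt80 rose with the knockdown (log2 0.95 ± 0.17 and 0.41 ± 0.05, edgeR adjusted p = 0.000127 and 2.23e-06). Krt16, a stress-associated type I keratin, fell in add-back against knockdown by 3.53 ± 0.70 (edgeR adjusted p = 0.00321), from 54 counts to 4. DESeq2 gave it no adjusted p there, and the CPM filter leaves it untested.

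**Figure D3:**
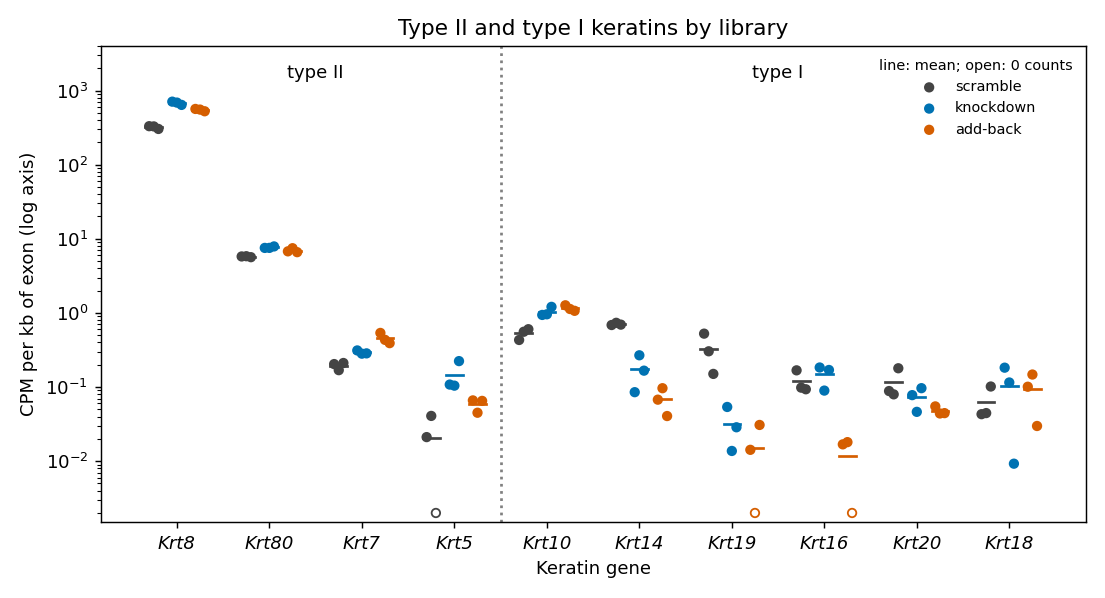
CPM per kilobase of exon (log axis) of 10 keratins, type II at the left and type I at the right, with 1 point per library coloured by group, lines at group means and open points for 0 counts. Krt8 averages 321 CPM per kb or more in each group while no type I keratin shown averages above 1.15.

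Spint2 (chromosome 7, 29256323 to 29281912, minus strand) encodes a Kunitz-type inhibitor, HAI-2, of membrane serine proteases on epithelial cells. It was at 0.06187, 0.02561 and 0 CPM in scramble, 16.69, 14.37 and 17.24 in knockdown and 16.11, 17.41 and 15.74 in add-back. All 6 libraries with the Eya3 hairpin lay far above the scramble libraries, and the knockdown and add-back libraries overlapped. The pooled knockdown level was 585 times the scramble level (95% counting interval 268 to 1590), resting on 6 scramble counts, and the add-back level 597 times (274 to 1630). The add-back minus knockdown difference was 0.03 ± 0.09, with a 95% interval of -0.15 to 0.21. The fitted knockdown minus scramble difference, 9.11 ± 0.22, was 8.53 without scramble replicate 3 and 10.1 without scramble replicate 1. Both lie outside the 95% interval of 8.67 to 9.54 from that SE, which is too small at 6 scramble counts. The 40 tested genes nearest to Spint2 had a median log2 difference of -0.48 between knockdown and scramble, on the other side of 0 from Spint2. Of these genes, 0 had a larger difference.

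Proteases and growth factor genes that act with the SPINT2 protein went both ways. Of 14 such genes, 5 were tested, and with the knockdown 2 rose and 3 fell, beside 27.7% and 29.9% of all tested genes. Their median was -1.43 against -0.001 over all tested genes. St14, which encodes the protease matriptase that HAI-2 inhibits, rose by 0.56 ± 0.19 (edgeR adjusted p = 0.018), from 0.698 to 1.03 CPM. Met, the receptor of hepatocyte growth factor, rose by 0.24 ± 0.03 (adjusted p = 2.15e-05), from 132 to 155 CPM. Mst1, which encodes macrophage-stimulating protein, a substrate of these proteases, fell by 1.43 ± 0.08 (adjusted p = 2.49e-10). Hpn and Prss8, for the membrane proteases hepsin and prostasin, fell by 2.22 ± 0.35 and 1.92 ± 0.69 (adjusted p = 4.37e-05 and 0.0256). The Prss8 call was lost without any 1 of the 6 scramble and knockdown libraries (adjusted p up to 0.0947). The St14 call was lost without scramble replicate 2, without knockdown replicate 1 and with no filter (up to 0.0635). Spint1, the paralogous inhibitor, had 29, 5 and 3 counts in scramble, knockdown and add-back and was not tested. In add-back against knockdown 0 of the 5 passed with edgeR, DESeq2 or limma voom, where 10.4% of all tested genes passed with edgeR. Of the 5, 1 had an unadjusted p under 0.05 with edgeR.

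Gata3 (chromosome 2, 9857078 to 9890034, minus strand) was the second most abundant of the 10 genes per kb. It was at 58.39, 64.97 and 62.86 CPM in scramble, 96.05, 108.1 and 108.5 in knockdown and 94.71, 111.4 and 101.7 in add-back. Both hairpin groups lay above scramble and overlapped each other. The differences were 0.75 ± 0.06 for knockdown minus scramble, -0.02 ± 0.06 for add-back minus knockdown and 0.72 ± 0.06 for add-back minus scramble. Genes on both strands overlap Gata3, among them the antisense gene Gm13256.

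Sox9 (chromosome 11, 112782224 to 112787760, plus strand) had the smallest fitted differences of the 10 genes in both comparisons with scramble. It was at 3.465, 3.226 and 3.587 CPM in scramble, 3.934, 3.848 and 4.241 in knockdown and 3.246, 4.141 and 3.343 in add-back. The knockdown libraries lay above the scramble libraries without overlap, by 0.23 ± 0.12, while the add-back libraries overlapped both other groups.

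Of 17 partner and cofactor genes of GATA3 and SOX9, 12 were tested. With the knockdown 3 rose and 3 fell (median -0.04), beside 27.7% and 29.9% of all tested genes. Lmo4, Zfpm1 and Zfpm2, which encode a LIM-only cofactor and the FOG proteins that bind GATA factors, rose by 0.37 ± 0.05, 0.41 ± 0.05 and 0.24 ± 0.04 (edgeR adjusted p = 6.02e-06, 7.72e-06 and 8.96e-05). Mbd3, a subunit of the NuRD complex, fell by 0.47 ± 0.04 (adjusted p = 4.31e-08), and Snai2, a zinc-finger repressor of basal mammary cells, by 1.43 ± 0.11 (adjusted p = 2.72e-08). Foxa1, the pioneer factor that acts with GATA3 in hormone-sensing cells, had 0 counts in all libraries. In add-back against knockdown 1 of the 12, Zfpm2, rose, by 0.23 ± 0.04 (adjusted p = 0.00119), beside 5.61% of all tested genes.

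Known targets of p63 went both ways. Of 24, 12 were tested. Between knockdown and scramble 5 rose, 3 fell and 4 did not pass (median -0.13), beside 27.7% higher and 29.9% lower over all tested genes. Itgb4, the hemidesmosome integrin, rose from 26.7 to 97.2 CPM (1.86 ± 0.06, edgeR adjusted p = 4.26e-13), and Dlx3, a homeobox factor of stratified epithelium, from 1.5 to 8.56 CPM (2.50 ± 0.16, adjusted p = 1.7e-09). Lamb3, which encodes a laminin chain of the basement membrane, fell by 2.83 ± 0.11 (adjusted p = 2.18e-12). Against knockdown it rose in the add-back by 0.56 ± 0.12 (adjusted p = 0.00651). In that comparison 1 of the 12 rose and 5 fell, beside 5.61% higher and 4.82% lower over all tested genes. Without knockdown replicate 2, 4 of the 12 passed there.

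Relatives, partners and regulators of p63 also went both ways. Of 12, 11 were tested, with 3 up and 6 down between knockdown and scramble, beside 27.7% and 29.9% of all tested genes. Between add-back and knockdown 1 was up, beside 5.61% of all tested genes. Trp53 fell from 311 to 270 CPM (-0.21 ± 0.04, edgeR adjusted p = 0.000141), and Mdm2, which encodes the ubiquitin ligase of p53, by 0.39 ± 0.05 (adjusted p = 1.79e-06). Itch, for a ubiquitin ligase of p63, rose by 0.28 ± 0.04 (adjusted p = 1.9e-05). Trp73 was not tested, with 16, 20 and 23 counts in the 3 groups.

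Other basal and myoepithelial genes went both ways. Of 30, 18 were tested, and between knockdown and scramble 5 rose and 6 fell (median 0.35), beside 27.7% and 29.9% of all tested genes. Cav1, a caveolar coat gene of myoepithelium, rose by 0.98 ± 0.04 and Mylk, the myosin light chain kinase of contractile cells, by 0.98 ± 0.07 (edgeR adjusted p = 1.19e-11 and 3.06e-09). Procr, the protein C receptor, a surface marker of basal progenitors, fell from 114 to 0.0168 CPM (-12.57 ± 0.13, adjusted p = 5.54e-19), with 24916 counts in scramble and 4 in knockdown. Over the alternative settings the Procr difference ran from -12.932 to -12.045, and its SE is too small at 4 knockdown counts. Pdpn, the basal surface protein podoplanin, fell from 183 to 33 CPM (-2.47 ± 0.04, adjusted p = 6.86e-17), and the matrix gene Sparc by 0.90 ± 0.04 (adjusted p = 4.45e-12). Between add-back and knockdown 3 rose and 5 fell, beside 5.61% and 4.82% of all tested genes. Cav1 fell by 0.58 ± 0.04 and Itga6, the integrin partner of Itgb4, by 0.31 ± 0.04 (adjusted p = 1.19e-07 and 0.000128). Among the 3 that rose, Pdpn gained 0.36 ± 0.04 and Nrg1 0.38 ± 0.04 (adjusted p = 1.92e-05 and 2.08e-05).

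Among genes of luminal progenitors and alveolar cells, 10 of 22 were tested. Between knockdown and scramble 7 of the 10 fell and 3 did not pass (median -1.17), where 29.9% of all tested genes were called lower. Csn3, the milk protein kappa-casein, fell from 57.1 to 2.22 CPM (-4.68 ± 0.13, edgeR adjusted p = 4.54e-13), and Elf3, an epithelial ETS factor, from 4.11 to 0.207 CPM (-4.31 ± 0.28, adjusted p = 1.08e-09). Against knockdown, 5 of the 10 rose in the add-back and 2 fell (median 0.40), beside 5.61% and 4.82% of all tested genes. Lcn2, an iron-binding secreted protein of progenitors and a known NF-kB target, rose from 3.22 to 273 CPM (6.41 ± 0.13, adjusted p = 3.55e-10), and Csn3 fell further, by 1.54 ± 0.20 (adjusted p = 0.000146). Elf3 rose by 1.15 ± 0.35 (adjusted p = 0.0456), a call that 8 of 17 alternative settings lost.

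Of 20 genes listed for hormone-sensing luminal cells, 5 were tested. Between knockdown and scramble 3 rose and 2 fell, beside 27.7% and 29.9% of all tested genes. Areg, the growth factor downstream of estrogen receptor in the gland, rose from 14 to 51.1 CPM (1.87 ± 0.06, edgeR adjusted p = 2.94e-13). Esr1, the estrogen receptor gene, rose by 0.48 ± 0.07 (adjusted p = 2.41e-05) and Xbp1, a factor of the secretory pathway, by 0.22 ± 0.05 (adjusted p = 0.00125). Itga2, a collagen-binding integrin, fell by 4.16 ± 0.74 (adjusted p = 0.000226), from 105 counts to 6, and Erbb3, a receptor of neuregulins, by 1.02 ± 0.08 (adjusted p = 2.14e-08). Outside this list, the receptor gene Erbb2 rose by 0.20 ± 0.05 (adjusted p = 0.00173). In add-back against knockdown, Areg fell by 0.52 ± 0.06 and Esr1 rose by 0.29 ± 0.07 (adjusted p = 1.27e-05 and 0.0131), the latter lost without knockdown replicate 2 or without add-back replicate 1.

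Among genes of epithelial junctions and their regulators, few were expressed enough to test. Of 24, 7 were tested, and 2 rose and 5 fell between knockdown and scramble (median -1.25), where 27.7% of all tested genes were called higher and 29.9% lower. With 1 library left out, 5 to 7 passed. Grhl2, a transcription factor of epithelial junction genes, was at 36.88, 36.46 and 33.94 CPM in scramble and 0.4871, 0.7136 and 0.2659 in knockdown, so that it fell by 6.18 ± 0.17 (edgeR adjusted p = 3.08e-13). Pkp3 and Ocln, for desmosome and tight junction proteins, fell by 1.25 ± 0.09 and 2.51 ± 0.54 (adjusted p = 3.74e-09 and 0.000775). The 2 that rose were Jup, by 1.71 ± 0.52 (adjusted p = 0.0102, from 18 counts to 63), and St14, given above. The falls held against scramble in the add-back, where 1 of the 7 rose and 5 fell, beside 27% and 28.7% of all tested genes. With a CPM filter 4 genes of the list were left and passed between knockdown and scramble.

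**Figure D4:**
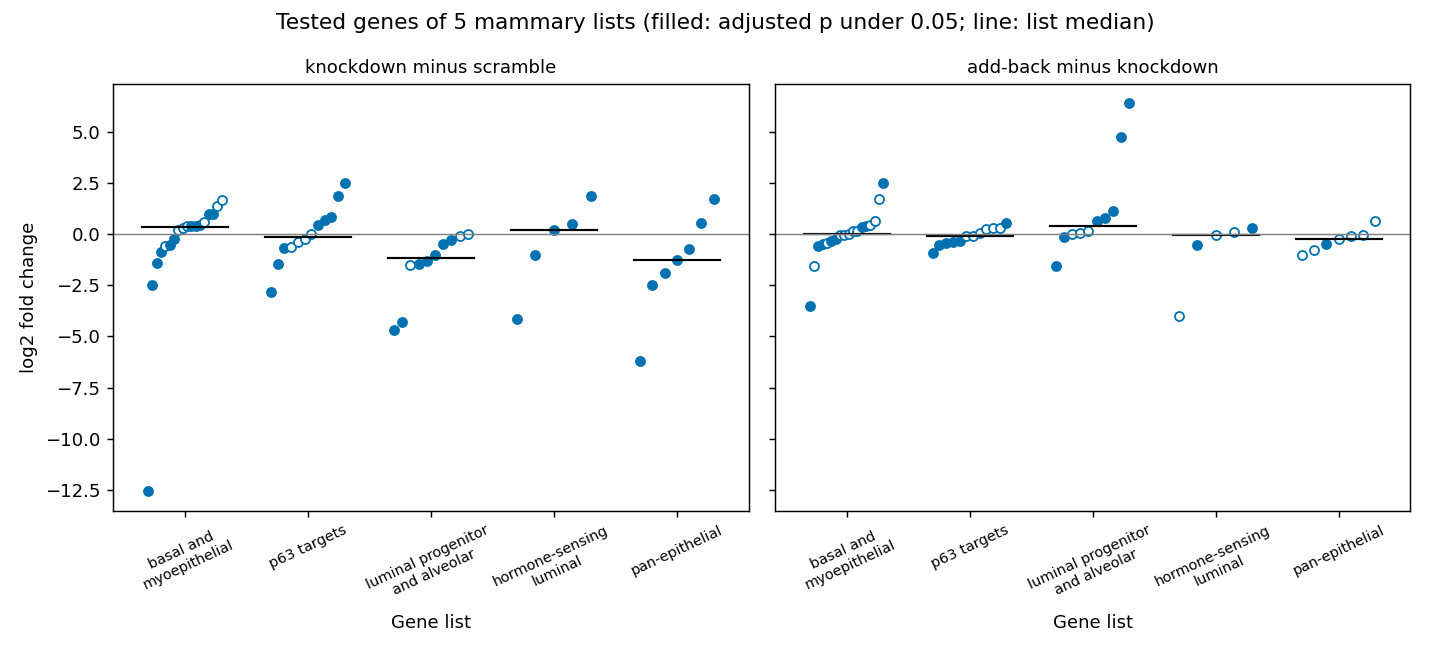
Log2 fold change of every tested gene of 5 mammary gene lists, ordered within each list, for knockdown minus scramble and add-back minus knockdown; filled points passed at an adjusted p under 0.05 and lines are list medians. Most luminal progenitor and pan-epithelial points lie below 0 in the first panel, and Lcn2 is the highest point of the second.

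Markers of other cell types were measured beside these lists. Summed fibroblast markers were at 50.7 to 53.1 CPM in scramble, 43.4 to 48.7 in knockdown and 45.8 to 47.8 in add-back, mostly from Pdgfra, at 47.9, 39.8 and 42.7 CPM on average. Of 7 such markers 4 were tested, and between knockdown and scramble 2 rose and 2 fell, beside 27.7% and 29.9% of all tested genes. Col1a2, a collagen chain, rose from 0.0682 to 4.18 CPM (5.89 ± 0.23, edgeR adjusted p = 2.15e-12). Col1a1, another collagen chain, and Pdgfra fell by 0.61 ± 0.14 and 0.27 ± 0.05 (adjusted p = 0.0015 and 0.000102). Dcn, the proteoglycan decorin, had 0, 15 and 155 counts in scramble, knockdown and add-back. Macrophage markers summed to 36.7 to 39.7, 20.5 to 23.4 and 27 to 29.1 CPM, but their defining genes Ptprc and Adgre1 had at most 12 and 2 counts in a group. Endothelial markers were at 4.85 to 5.74, 0.306 to 0.561 and 1.2 to 1.43 CPM, lymphocyte markers at 0.385 CPM or less, and adipocyte markers at 0.371 to 0.478, 0.382 to 0.512 and 1.06 to 1.9 CPM. The endothelial and macrophage sums were thus lowest in the knockdown, beside the falls of luminal progenitor genes, and their part in those results was not tested.

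Genes whose levels over the 9 libraries were most like each member were ranked by Pearson's r on log2(CPM + 0.5), as a description. All 9 points share 3 groups, so any gene that separates scramble from the hairpin groups scores high. For Trp63 the closest were Serpina1a, Rbpj and Ogn, and 1255 of 10388 genes had an r above 0.95. For Spint2 they were Col5a2, Mrc2 and Fam120a, among 1342 such genes, and for Krt8 they were Tcp1, Sqle and Me2, among 885. Klf3, Anp32a and Rab5c were nearest to Gata3. Krt7 had 41 genes above 0.95, led by Gsdmd, and Sox9 had 0.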

How the data were processed

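RNA from 66cl4 cells was extracted with an RNeasy kit and made into libraries with a NuGEN mRNA-seq kit, and cells were kept in 2.5 µg/ml puromycin and selected on mCherry, per the labels' protocols. Values in the deposited table are raw counts, whole numbers by gene symbol, without normalization by the authors. FastQC, MultiQC, STAR and the mm10 build are named in the submitters' processing notes, without versions. For the counter, its annotation and strandedness, nothing is given in the sources used here. Columns were matched to samples by group and replicate number. Replicates of a group differed beyond counting noise (chi-square per degree of freedom 3.85 to 20.75), so each library was kept as its own sample.

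Of 52208 genes, 16766 had at least 10 counts in enough libraries of a group and 15 in all (filterByExpr in edgeR). They were TMM-scaled and fitted in edgeR 4.0.16 (R 4.3.3) by robust quasi-likelihood over the 9 libraries, with a term for group alone, 6 residual degrees of freedom and a common biological coefficient of variation of 5.26%. P-values were adjusted by Benjamini-Hochberg over all tested genes and called at 0.05. The SE of a log2 difference was taken from its F statistic, as size over root F. It is too small where a group holds only a few counts, as for Trp63 and Spint2 in scramble. The fit was tested on simulated data in which only a small part of the genes changed. That test does not cover a difference as broad as knockdown against scramble, where 57.5% of genes passed. Folds with 95% intervals compare pooled counts and cover counting error only. The 10 genes and all lists were chosen with earlier results of these data known, and the lists are those of basal and myoepithelial cells, p63 targets, p63 partners, luminal progenitor and alveolar cells, hormone-sensing luminal cells, epithelial junctions, proteases around SPINT2, GATA3 and SOX9 partners, receptors, other keratins, and markers of mammary epithelium, fibroblasts, macrophages, lymphocytes, endothelium and adipocytes. Genes named were the 10 members, up to 4 called genes per list and comparison by smallest adjusted p, the receptor genes, neighbouring keratins and the 3 genes most like a member, from those whose log2 CPM averaged 1 or more. The genes Trp53, Trp73, Spint1, Foxa1, Xbp1, Jup and the marker genes were named outside this rule after their values were seen. Gene positions and exon lengths come from GENCODE M21 on GRCm38, and 50-base stretches were compared over its transcripts. The 17 alternatives were DESeq2 size factors or library totals in edgeR, no filter or a filter of 0.5 CPM in 3 libraries, DESeq2 1.42.0, limma 3.58.1 voom, a replicate block, a fit of the compared groups alone, and each library left out. The values of 1 gene of the p63 target list are not reported here.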

Additional observations from a re-analysis of the deposited data

How the results depend on the processing

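No called difference changed sign. Of the uncalled differences of the 10 genes, 5 did: Krt18 between knockdown and scramble (0.69, down to -0.01) and between add-back and knockdown (-0.15, up to 0.56), Spint2 between add-back and knockdown (0.03, down to -0.05), Gata3 there (-0.02, up to 0.03) and Sox9 between add-back and scramble (0.06, down to -0.05). The 10 genes gave 6 to 8 calls between knockdown and scramble over the 17 alternatives, 2 to 4 between add-back and knockdown and 6 to 8 between add-back and scramble, the fewest in the comparisons with scramble under the CPM filter, which tests neither Krt5 nor Krt19. The replicate numbers were not taken to pair the libraries, although deviations of same-numbered libraries were correlated for replicates 1 and 3. In add-back against knockdown they correlated at 0.487, 0.099 and 0.257 for replicates 1, 2 and 3. In knockdown against scramble they correlated at 0.357, -0.041 and 0.349. Whether the libraries are paired is thus not settled here. With the replicate block, genes called between add-back and knockdown came to 2678 against 1749, and calls among GATA3 and SOX9 partners and among other keratins each came to 2 against 1. Left-out libraries gave 1168 to 1800 genes there, the fewest without knockdown replicate 2. In add-back against knockdown, leaving out a library gave 1 to 2 calls among hormone-sensing genes, 1 to 2 among epithelial genes, 0 to 1 among SPINT2-related genes, 0 to 1 among receptors and 1 to 2 among other keratins. Epithelial genes gave 2 calls there with no filter, and other keratins gave 0 with the CPM filter and with DESeq2, which give Krt16 no adjusted p. In knockdown against scramble, the CPM filter left 4 calls among epithelial genes against 7, and left-out libraries gave 3 to 5 among SPINT2-related genes. In add-back against scramble, the CPM filter left 2 other keratins called against 4. The CPM filter tests fewer genes; the cause of the other shifts was not tested. Counts limit Krt5, Krt18 and Krt19 in all groups and Trp63 and Spint2 in scramble, and 3 libraries a group limit all errors.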
